A study of Mus musculus with 16 samples.

Results

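Aldehyde dehydrogenases, aldo-keto reductases and alcohol dehydrogenases are the enzyme families through which liver cells oxidise or reduce aldehydes, ketones and alcohols. Here their mRNAs were followed in the livers of mice in which the GSH-synthesis gene *Gclc*, the transcription factor gene *Nrf2*, or both were targeted for deletion. The genes were taken by symbol, as every row named Aldh, Akr or Adh plus a number, without pseudogene suffix and with a mean value of at least 3 over all libraries. This gave 38 genes of the 56832 in the deposited table, and 15128 genes passed the same minimum. The families have 6 more genes under that minimum (*Adh6a*, *Adh6b*, *Akr1cl*, *Akr1c21*, *Aldh3a1* and *Aldh3b2*), which were not tested.

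Liver RNA was sequenced from 16 libraries, 4 for each of 4 genotypes. L-DKO mice carried floxed alleles of both genes (Gclc f/f Nrf2 f/f), Gclc L-KO mice were Gclc f/f, Nrf2 L-KO mice were Nrf2 f/f, and WT mice were Gclc wt/wt. Adult mice of all 4 genotypes, WT included, received AAV-TBG-Cre by the tail vein, and livers were taken 3 weeks later. The TBG promoter drives Cre in hepatocytes, so the other cells of these livers kept both genes, and the values are those of whole liver. In such bulk samples, fewer cells of a type and less RNA per cell cannot be told apart. Values are rlog values, a log2 scale on which the authors' software shrank the differences of genes with few reads. A log2 fold change below is a difference of mean rlog values between genotypes, and it is likely to be smaller than the change in read counts for low genes.

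Alcohol dehydrogenases convert alcohols such as ethanol and retinol to aldehydes, and aldehyde dehydrogenases oxidise aldehydes to acids. Many aldo-keto reductases work in the other direction with NADPH and turn aldehydes, sugars and steroid ketones into alcohols. Others, *Akr1c19* among them, are described as dehydrogenases, so a higher mRNA does not give the direction of the reaction. NRF2, encoded by *Nfe2l2*, is a transcription factor held down by KEAP1 and released under oxidative stress, and it binds DNA with small MAF proteins at the antioxidant response element. Several aldo-keto reductases and aldehyde dehydrogenases are known as its targets in mouse or human cells.

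Promoters were read from a RefSeq table (GRCm38.p6, 250 bases before to 50 bases after each start). The table held 35 windows for 32 of the 38 genes. Those of 3 raised genes of the *Akr1c* cluster and of the neighbours *Aldh1a1* and *Aldh1a7* are shown, chosen after the values were seen. The letters TGANNNNGC, the core of the antioxidant response element, were searched on both strands. Capitals mark each match to TGANNNNGC, also where it lies on the strand opposite to the one printed. The windows are chr13:4279350-4279649 (minus strand) for *Akr1c12*, chr13:4190937-4191236 (plus strand) for *Akr1c13*, chr13:4233490-4233789 (plus strand) for *Akr1c19*, chr13:4434093-4434392 (plus strand) for *Akr1c6*, chr19:20601718-20602017 (plus strand) for *Aldh1a1* and chr19:20727507-20727806 (minus strand) for *Aldh1a7*. *Akr1c6* is shown as a gene of the same cluster without a match, and *Aldh1a1* has a further window that is not shown.
Akr1c12: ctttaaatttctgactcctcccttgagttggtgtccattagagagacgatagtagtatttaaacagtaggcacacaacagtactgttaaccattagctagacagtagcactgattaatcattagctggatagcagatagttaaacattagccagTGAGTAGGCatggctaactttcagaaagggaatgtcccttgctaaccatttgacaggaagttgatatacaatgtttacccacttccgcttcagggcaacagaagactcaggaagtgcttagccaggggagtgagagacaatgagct
Akr1c13: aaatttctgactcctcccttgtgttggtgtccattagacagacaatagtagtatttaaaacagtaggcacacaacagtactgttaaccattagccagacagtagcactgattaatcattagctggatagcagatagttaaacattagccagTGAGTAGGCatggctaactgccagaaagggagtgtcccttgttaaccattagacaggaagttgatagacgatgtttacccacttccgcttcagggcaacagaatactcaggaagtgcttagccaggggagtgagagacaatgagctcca
Akr1c19: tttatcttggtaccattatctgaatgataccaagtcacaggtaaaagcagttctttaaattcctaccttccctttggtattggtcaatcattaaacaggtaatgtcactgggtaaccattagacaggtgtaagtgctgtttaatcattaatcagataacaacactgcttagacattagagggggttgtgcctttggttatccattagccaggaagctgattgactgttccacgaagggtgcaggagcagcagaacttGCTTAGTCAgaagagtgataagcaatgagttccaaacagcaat
Akr1c6: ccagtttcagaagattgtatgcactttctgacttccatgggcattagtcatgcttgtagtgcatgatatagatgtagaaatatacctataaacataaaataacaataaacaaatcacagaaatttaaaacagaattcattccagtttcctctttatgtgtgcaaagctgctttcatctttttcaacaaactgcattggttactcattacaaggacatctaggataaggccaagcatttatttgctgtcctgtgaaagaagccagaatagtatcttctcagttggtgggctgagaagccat
Aldh1a1: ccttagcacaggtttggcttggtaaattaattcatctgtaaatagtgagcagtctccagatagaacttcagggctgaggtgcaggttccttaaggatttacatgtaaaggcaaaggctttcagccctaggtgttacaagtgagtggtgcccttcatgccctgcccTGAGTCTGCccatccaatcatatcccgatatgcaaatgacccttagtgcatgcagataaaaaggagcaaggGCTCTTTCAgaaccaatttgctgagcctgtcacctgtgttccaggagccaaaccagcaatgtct
Aldh1a7: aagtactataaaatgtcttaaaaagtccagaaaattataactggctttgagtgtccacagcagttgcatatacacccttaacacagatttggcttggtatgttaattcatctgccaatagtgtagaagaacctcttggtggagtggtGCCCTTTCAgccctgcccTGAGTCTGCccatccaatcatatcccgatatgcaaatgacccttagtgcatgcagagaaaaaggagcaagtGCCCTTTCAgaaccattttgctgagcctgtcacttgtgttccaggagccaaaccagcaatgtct

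*Akr1c12* and *Akr1c13* hold the same match, TGAGTAGGC, with its first base at position -96 and -99 from the start. *Akr1c19* holds GCTTAGTCA at position 7, which fits the stricter TGACNNNGC on the strand opposite to the one printed, a subset of the TGANNNNGC matches. *Aldh1a1* and *Aldh1a7* share TGAGTCTGC at position -85 and each have a match on the opposite strand at -14. *Aldh1a7* has another match on that opposite strand at -103. A match to TGANNNNGC was found in 17 of the 35 windows of these genes (48.6%), beside 41.3% of 32851 windows in the whole table, or for 15 of the 32 genes, beside 45% of 27025 genes. TGACNNNGC was found in 3 of the 35 (8.57%, those of *Akr1c19*, *Aldh1a2* and *Aldh9a1*), beside 12.4% of all windows. No match stood in the windows of *Adh4*, *Adh7*, *Akr1a1*, *Akr1b10*, *Akr1c6*, *Akr1c14*, *Akr1c18*, *Akr1d1*, *Akr1e1*, *Akr7a5*, *Aldh1l1*, *Aldh3b1*, *Aldh3b3*, *Aldh5a1*, *Aldh8a1*, *Aldh16a1* or *Aldh18a1*. Among the other genes that rose in Gclc L-KO against WT, *Aldh3a2* holds a match, while *Akr1a1* and *Aldh3b1* hold none. Matches also stood in windows of genes that did not rise there, such as *Adh5*, *Aldh4a1* and *Aldh6a1*. The windows shown therefore do not tell whether a match goes with a rise, which was not tested. Binding of NRF2 was not measured.

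The promoter windows also show how alike neighbouring genes are. Those of *Akr1c12* and *Akr1c13* were identical at 95.9% of 296 aligned bases, and the longest reading frames of their transcripts at 96.2%. The *Aldh1a1* and *Aldh1a7* windows were identical at 77.5% of 285 aligned bases and their reading frames at 91.6%. *Akr1c6* and *Akr1c20* shared 92.3% of coding bases, *Aldh3b1* and *Aldh3b3* 85.3%, and *Akr1b7*, *Akr1b8* and *Akr1b10* between 85.5% and 89.3%. Reads of such pairs can be hard to assign, so the split of a value between the members of a pair is uncertain. On chromosome 13 the RefSeq gene table places *Akr1c14*, *Akr1c18*, *Akr1c13*, *Akr1c19*, *Akr1c12*, *Akr1c6* and *Akr1c20* in that order with no other coding gene between them, and on chromosome 19 *Aldh1a1* and *Aldh1a7* are direct neighbours.

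The libraries were checked against their labels first. *Gclc* was at 11.45, 11.44, 11.33 and 11.66 in L-DKO livers, at 13.01, 12.81, 13.84 and 14.06 in Gclc L-KO livers, at 12.92, 12.67, 12.59 and 12.998 in Nrf2 L-KO livers and at 13.001, 12.96, 13.40 and 13.52 in WT livers. It differed by -1.75 between L-DKO livers and WT livers (limma adjusted p = 9.72e-04) but was not lower in the libraries labelled Gclc L-KO (0.21, adjusted p = 0.535), although both genotypes carry Gclc f/f. By quantitative PCR the paper reports less *Gclc* mRNA in Gclc L-KO livers and less *Nrf2* mRNA in L-DKO livers, which these libraries do not show. The cause was not tested, and Gclc L-KO stands below for the libraries with that label. *Nqo1*, a classical NRF2 target, differed by 3.88 between Gclc L-KO livers and WT livers (limma adjusted p = 1.51e-06) and by -3.88 between L-DKO livers and Gclc L-KO livers (1.50e-06). *Nfe2l2* was not lower in either genotype labelled for it, and it was 1.20 higher in L-DKO livers than in WT livers. In every genotype replicates 1 and 2 had high *Xist* (14.10 to 14.65) and low *Ddx3y* (5.07 to 5.37), while replicates 3 and 4 had *Xist* at 7.95 to 8.91 and *Ddx3y* at 10.35 to 10.80. High *Xist* with low *Ddx3y* is the pattern of female livers, and the reverse that of male livers. The labels give no sex, while the paper reports mice of both sexes. Sex and any other difference between the pairs of replicates cannot be told apart here. The signs of the called changes of the 38 genes were therefore also compared within both pairs of replicates, with values given for most of them. Among markers of other cells, the mean over 7 macrophage genes ranged from 9.57 to 10.29 in L-DKO, from 9.70 to 10.33 in Gclc L-KO, from 9.10 to 10.42 in Nrf2 L-KO and from 9.003 to 9.41 in WT livers. Of these 7, *Adgre1*, *Clec4f* and *Cd68* passed as higher in Gclc L-KO against WT, and *Cd68* and *Marco* in L-DKO against WT. The mean over 6 hepatocyte genes ranged from 16.74 to 17.06 in L-DKO, from 16.55 to 16.95 in Gclc L-KO, from 16.998 to 17.13 in Nrf2 L-KO and from 17.05 to 17.07 in WT livers. Of those 6, *Asgr1* was called lower in L-DKO against WT, and of 5 endothelial genes *Lyve1* was called higher in Gclc L-KO against WT. No stellate, bile duct, lymphocyte or erythroid marker was called in these comparisons. The part of other cells in the changes below was not tested.

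Gclc L-KO livers had higher levels of a set of reductases and aldehyde dehydrogenases than WT livers, led by *Akr1c19* and *Akr1c13*, and lower levels of others, led by *Adh4*. A gene is called where its limma p, adjusted over all 15128 genes, is under 0.05. In Gclc L-KO against WT, 8 of the 38 genes rose and 5 fell (34.2%), where 23% of all genes were called, 10.6% higher and 12.4% lower. In L-DKO against Gclc L-KO, 3 rose and 11 fell (36.8%), where 8.64% of all genes were called, 3.84% higher and 4.8% lower. In L-DKO against WT, 3 rose and 7 fell (26.3%), beside 9.96% of all genes, 3.79% higher and 6.17% lower. In L-DKO against Nrf2 L-KO, 3 rose and 0 fell (7.89%), beside 5.26% of all genes, 2.65% higher and 2.61% lower. In Nrf2 L-KO against WT 0 were called, beside 0.139% of all genes (0.0132% higher and 0.126% lower), although 9 had an unadjusted p under 0.05, beside 6.91% of all genes, and the lowest adjusted p was 0.0839. The comparisons of L-DKO and of WT with Gclc L-KO livers share the Gclc L-KO libraries, so a high value there enters both with opposite sign. The genotypes did not overlap for 14 of the 38 genes in L-DKO against WT (17.6% of all genes), for 15 in Gclc L-KO against WT (26.6%) and for 5 in Nrf2 L-KO against WT (4.53%). L-DKO did not overlap with Gclc L-KO for 13 (13.9%) nor with Nrf2 L-KO for 6 (13.5%). Over the 38 genes the median log2 fold change was -0.26 for L-DKO livers, -0.02 for Gclc L-KO livers and -0.10 for Nrf2 L-KO livers, each against WT, and -0.11 for L-DKO livers against Gclc L-KO livers, beside medians between -0.01 and 0.01 over all tested genes. In all, 20 of the 38 were called in at least 1 of these 5 comparisons, where 30.7% of all genes were, and 18 in none.

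**Figure D1:**
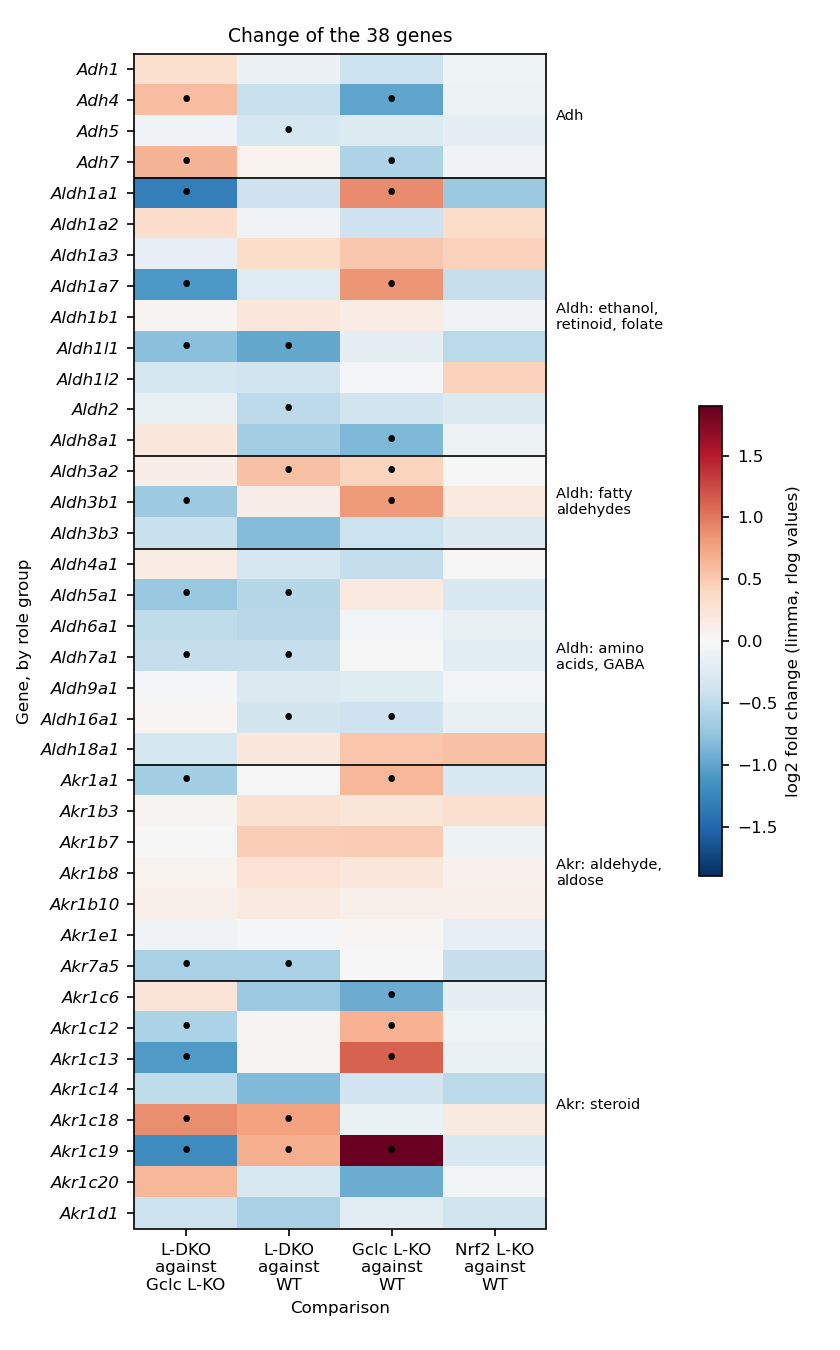
Log2 fold change of rlog values (colour) of each of the 38 genes (rows, by role group) in 4 comparisons (columns), with a dot where the limma adjusted p over 15128 genes was under 0.05. The 8 genes that rose in Gclc L-KO against WT include the darkest red cell, Akr1c19 at 1.88, and the lowest value is that of Aldh1a1 in L-DKO against Gclc L-KO, at -1.29.

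Aldo-keto reductases of the hydroxysteroid type held the largest change of the 38 genes. Of 8 such genes, 3 rose and 1 fell in Gclc L-KO against WT. Set against Gclc L-KO livers, 1 rose and 3 fell in L-DKO livers, and 2 rose there against WT. *Akr1c19*, a dehydrogenase of the cluster with broad alcohol and steroid substrates, had 11.74, 11.92, 11.99 and 11.88 in L-DKO livers, 13.05, 13.05, 13.18 and 13.01 in Gclc L-KO livers, 10.68, 10.79, 11.31 and 10.85 in Nrf2 L-KO livers and 10.99, 11.52, 11.13 and 11.14 in WT livers. All Gclc L-KO values lay above all others, and all L-DKO values lay between those and WT without overlap. It was higher in Gclc L-KO livers than in WT livers by 1.88 ± 0.13 (SE), a 3.68-fold difference (limma adjusted p = 3.22e-07), by 1.80 within replicates 1 and 2 and 1.96 within 3 and 4. L-DKO livers differed from Gclc L-KO livers by -1.19 (4.02e-05), and they were still 0.69 above WT (0.00600) and 0.97 above Nrf2 L-KO (9.91e-04). In L-DKO livers *Akr1c19* thus lay between its levels in Gclc L-KO and WT livers.

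*Akr1c13* and *Akr1c12*, near-identical neighbours on either side of *Akr1c19*, did not differ between L-DKO and WT livers past the threshold. *Akr1c13* had 11.13, 11.32, 11.38 and 11.34 in L-DKO livers, 12.03, 12.35, 12.47 and 12.62 in Gclc L-KO livers, 10.96, 11.07, 11.38 and 11.06 in Nrf2 L-KO livers and 11.07, 11.35, 11.25 and 11.31 in WT livers. Only the Gclc L-KO libraries stood apart, 1.13 ± 0.12 above WT (limma adjusted p = 3.32e-05, 0.98 and 1.27 within the 2 pairs of replicates). In L-DKO, *Akr1c13* differed from Gclc L-KO by -1.08 ± 0.12 (5.11e-05) and from WT by 0.05 ± 0.12. *Akr1c12*, whose values were looked at after those of *Akr1c13* were known, had 10.74, 10.87, 10.98 and 10.99 in L-DKO livers, 11.30, 11.50, 11.55 and 11.64 in Gclc L-KO livers, 10.49, 10.68, 11.07 and 10.80 in Nrf2 L-KO livers and 10.82, 10.89, 10.79 and 10.86 in WT livers. Its Gclc L-KO values also lay above all others, with a rise of 0.66 ± 0.10 against WT (8.35e-04, 0.55 and 0.77 within the pairs) and a difference of -0.60 ± 0.10 between L-DKO livers and Gclc L-KO livers (0.00247).

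Other genes of the same cluster went another way. *Akr1c6*, a 17-beta-hydroxysteroid dehydrogenase of liver, had 14.41, 14.63, 13.67 and 13.92 in L-DKO livers, 14.73, 14.23, 13.65 and 13.03 in Gclc L-KO livers, 14.64, 14.71, 14.87 and 14.43 in Nrf2 L-KO livers and 14.87, 14.77, 14.93 and 14.84 in WT livers. It fell in Gclc L-KO against WT by 0.94 on the log2 scale (SE 0.29, limma adjusted p = 0.0294), by 0.34 within replicates 1 and 2 and by 1.54 within replicates 3 and 4. That call was lost in 6 of 8 fits with 1 library left out, namely without Gclc L-KO replicate 3 or 4 or any single WT library, and the adjusted p then reached up to 0.0912. *Akr1c20*, with 92.3% of its coding bases in common with *Akr1c6*, had values from 9.24 to 11.21 in Gclc L-KO and from 11.04 to 11.37 in WT livers and passed no test. *Akr1c14*, a 3-alpha-hydroxysteroid dehydrogenase, had 14.06, 13.67, 12.97 and 12.28 in Gclc L-KO livers and 13.35, 13.76, 13.56 and 13.76 in WT livers and was not called either. Its change went opposite ways in the pairs, 0.31 in replicates 1 and 2 and -1.04 in replicates 3 and 4.

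*Akr1c18*, the 20-alpha-hydroxysteroid dehydrogenase that inactivates progesterone, was the gene of the cluster that was higher in L-DKO livers than in each other genotype. It had 3.56, 4.14, 4.16 and 3.93 in L-DKO livers, 3.18, 3.004, 3.11 and 2.97 in Gclc L-KO livers, 3.39, 3.72, 2.95 and 3.36 in Nrf2 L-KO livers and 3.37, 3.28, 2.96 and 3.16 in WT livers, close to the minimum of 3. L-DKO did not overlap with Gclc L-KO or WT, but did with Nrf2 L-KO. The difference was 0.88 ± 0.16 against Gclc L-KO (limma adjusted p = 0.00400), 0.76 against WT (0.0127, 0.53 and 0.99 within the pairs) and 0.59 against Nrf2 L-KO (0.0487, 0.30 and 0.89 within the pairs). Without L-DKO replicate 3 the adjusted p against WT was 0.0521. Against Nrf2 L-KO the call was lost in 6 of 8 fits with 1 library left out, those without L-DKO replicate 2, 3 or 4 or Nrf2 L-KO replicate 1, 3 or 4, with an adjusted p of up to 0.159. *Akr1d1*, the 5-beta-reductase of bile acid synthesis, was called in no comparison, with 12.16 ± 0.56 in L-DKO, 12.57 ± 0.52 in Gclc L-KO, 12.40 ± 0.34 in Nrf2 L-KO and 12.77 ± 0.28 in WT livers (mean and SD, n = 4 each).

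**Figure D2:**
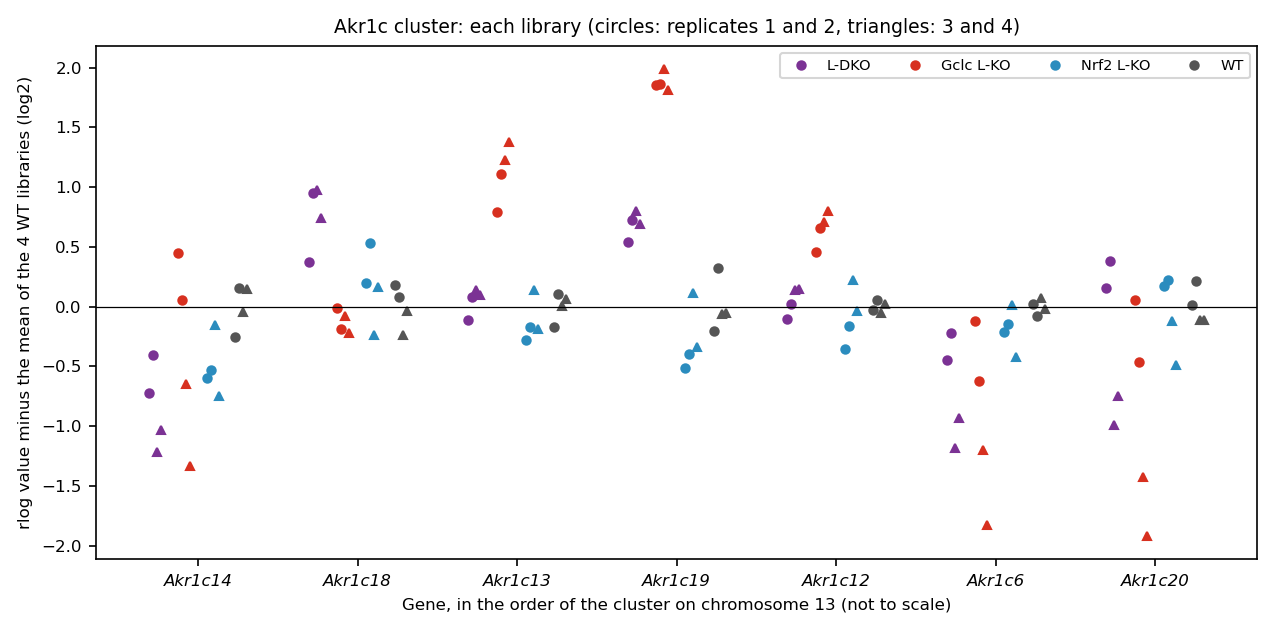
rlog value of each library less the mean of the 4 WT libraries (vertical axis, log2) for the 7 Akr1c genes in their order on chromosome 13 (horizontal axis, not to scale), coloured by genotype. Akr1c13, Akr1c19 and Akr1c12 are highest in all 4 Gclc L-KO libraries, Akr1c18 has its highest values in L-DKO, and Akr1c6 and Akr1c20 have their lowest values in replicates 3 and 4 of L-DKO and Gclc L-KO.

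Among the 7 aldo-keto reductases of the aldehyde and aldose reductase type, *Akr1a1* rose in Gclc L-KO livers against WT, and *Akr1a1* and *Akr7a5* fell in L-DKO livers against Gclc L-KO livers. *Akr1a1*, the aldehyde reductase that also serves ascorbate synthesis in mice, had 13.20, 13.24, 13.45 and 13.53 in L-DKO livers, 13.92, 14.03, 14.02 and 14.02 in Gclc L-KO livers, 13.01, 13.05, 13.17 and 13.05 in Nrf2 L-KO livers and 13.28, 13.31, 13.42 and 13.43 in WT livers. The Gclc L-KO libraries lay above all others, and the Nrf2 L-KO libraries below all others. The rise in Gclc L-KO against WT was 0.64 ± 0.08 (limma adjusted p = 1.40e-04, 0.68 and 0.59 within the pairs), and L-DKO livers differed from Gclc L-KO livers by -0.64 ± 0.08 (1.64e-04). Nrf2 L-KO differed from WT by -0.29 ± 0.08, which did not pass (adjusted p = 0.389). This gene and the next were singled out after their values were seen.

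*Akr7a5*, which reduces succinic semialdehyde and aflatoxin dialdehyde, followed another order. It had 10.72, 10.84, 10.72 and 10.90 in L-DKO livers, 11.50, 11.47, 11.39 and 11.27 in Gclc L-KO livers, 10.77, 10.82, 11.20 and 11.07 in Nrf2 L-KO livers and 11.38, 11.31, 11.46 and 11.50 in WT livers. Gclc L-KO and WT livers overlapped, while L-DKO livers lay below both. It fell in L-DKO against WT by 0.61 on the log2 scale (SE 0.09, limma adjusted p = 0.00184, -0.56 and -0.66 within the pairs) and against Gclc L-KO by as much (7.86e-04). In Nrf2 L-KO it differed from WT by -0.45 ± 0.09 with no overlap, at an adjusted p of 0.0839, the lowest of the 38 genes in that comparison. The other 5 genes of this type, *Akr1b3* (aldose reductase), *Akr1b7*, *Akr1b8*, *Akr1b10* and *Akr1e1* (1,5-anhydrofructose reductase), were called in no comparison. *Akr1b10*, for example, had 6.28 ± 0.10 in L-DKO, 6.19 ± 0.14 in Gclc L-KO, 6.20 ± 0.52 in Nrf2 L-KO and 6.10 ± 0.25 in WT livers (mean and SD, n = 4 each).

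The 9 aldehyde dehydrogenases of ethanol, retinoid and formyl-folate metabolism held 2 genes that rose and 1 that fell in Gclc L-KO livers against WT (*Aldh8a1*, placed here as a retinal dehydrogenase and also an enzyme of tryptophan breakdown), and 3 that fell in L-DKO livers against Gclc L-KO livers. *Aldh1a1*, which oxidises retinal to retinoic acid, had 14.84, 15.04, 14.14 and 14.66 in L-DKO livers, 16.27, 16.04, 15.85 and 15.70 in Gclc L-KO livers, 14.35, 14.40, 14.62 and 14.07 in Nrf2 L-KO livers and 14.59, 14.96, 15.26 and 15.43 in WT livers. Every Gclc L-KO library lay above every other library, and the other genotypes overlapped with each other. The rise in Gclc L-KO against WT was 0.90 ± 0.21 (limma adjusted p = 0.00838), but 1.38 within replicates 1 and 2 and 0.43 within replicates 3 and 4, where it did not pass on its own. L-DKO differed from Gclc L-KO by -1.29 ± 0.21 (0.00179), with -1.21 and -1.37 within the 2 pairs.

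*Aldh1a7*, the close relative beside *Aldh1a1*, had 12.49, 12.50, 12.38 and 12.60 in L-DKO livers, 13.42, 13.69, 13.61 and 13.61 in Gclc L-KO livers, 12.20, 12.12, 12.41 and 12.46 in Nrf2 L-KO livers and 12.54, 12.67, 12.83 and 12.92 in WT livers. Gclc L-KO again stood above all others, and Nrf2 L-KO lay below WT in all 4 libraries. The rise in Gclc L-KO against WT was 0.84 ± 0.10 (limma adjusted p = 8.09e-05, 0.95 and 0.73 within the pairs), and L-DKO differed from Gclc L-KO by -1.09 ± 0.10 (5.91e-06). Nrf2 L-KO differed from WT by -0.44 ± 0.10, which did not pass in the fit used here (adjusted p = 0.147) but did with array weights (0.00886) and with *Xist* as a covariate (0.0468). *Aldh1a1* in Nrf2 L-KO differed from WT by -0.70 ± 0.21 (adjusted p = 0.499) and passed with array weights alone (0.0249).

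*Aldh1l1*, the cytosolic 10-formyltetrahydrofolate dehydrogenase, was lowest in L-DKO livers. It had 14.78, 14.90, 14.07 and 14.17 in L-DKO livers, 15.52, 15.32, 15.26 and 14.97 in Gclc L-KO livers, 14.84, 15.06, 15.06 and 14.81 in Nrf2 L-KO livers and 15.15, 15.64, 15.48 and 15.52 in WT livers, and it was singled out after its values were seen. L-DKO did not overlap with Gclc L-KO or WT, and replicates 3 and 4 of L-DKO were the lowest of all libraries. Nrf2 L-KO also lay below WT without overlap, by -0.50, which was not called (limma adjusted p = 0.644). L-DKO overlapped with Nrf2 L-KO and was not called against it (-0.46, 0.143). It fell in L-DKO against WT by 0.97 on the log2 scale (SE 0.19, limma adjusted p = 0.00745), by 0.55 within replicates 1 and 2 and by 1.38 within replicates 3 and 4. Against Gclc L-KO the difference was -0.79 (0.0169), with an adjusted p of up to 0.0562 without L-DKO replicate 3 or 4, where the call was lost. *Aldh2*, the mitochondrial enzyme that clears acetaldehyde, fell in L-DKO against WT by 0.50 (0.0384, -0.40 and -0.60 within the pairs), a call lost in 6 of 8 fits with 1 library left out (L-DKO replicate 3 or 4 or any WT library, adjusted p up to 0.130). Nrf2 L-KO values of *Aldh2* also lay below all WT values (-0.27, limma adjusted p = 0.749, not called). Between L-DKO and Nrf2 L-KO *Aldh2* was not called (-0.23, 0.329).

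*Aldh8a1* fell in Gclc L-KO against WT by 0.86 on the log2 scale (SE 0.27, limma adjusted p = 0.0312). Its values were 13.04, 12.75, 12.27 and 11.63 in Gclc L-KO livers and between 13.23 and 13.34 in WT livers, so that replicates 3 and 4 of Gclc L-KO were the lowest of the 8. The change was -0.41 within replicates 1 and 2 and -1.31 within replicates 3 and 4, and the call was lost without Gclc L-KO replicate 3 or 4 or any single WT library (adjusted p up to 0.1003). L-DKO livers also lay below WT livers without overlap, by -0.66 (-0.26 and -1.06 within the pairs), which was not called (limma adjusted p = 0.119). L-DKO against Gclc L-KO was not called either (0.20, 0.703). The remaining 4 of this group, *Aldh1a2* and *Aldh1a3* (retinal to retinoic acid), *Aldh1b1* (mitochondrial acetaldehyde) and *Aldh1l2* (mitochondrial formyl-folate), were called in no comparison.

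**Figure D3:**
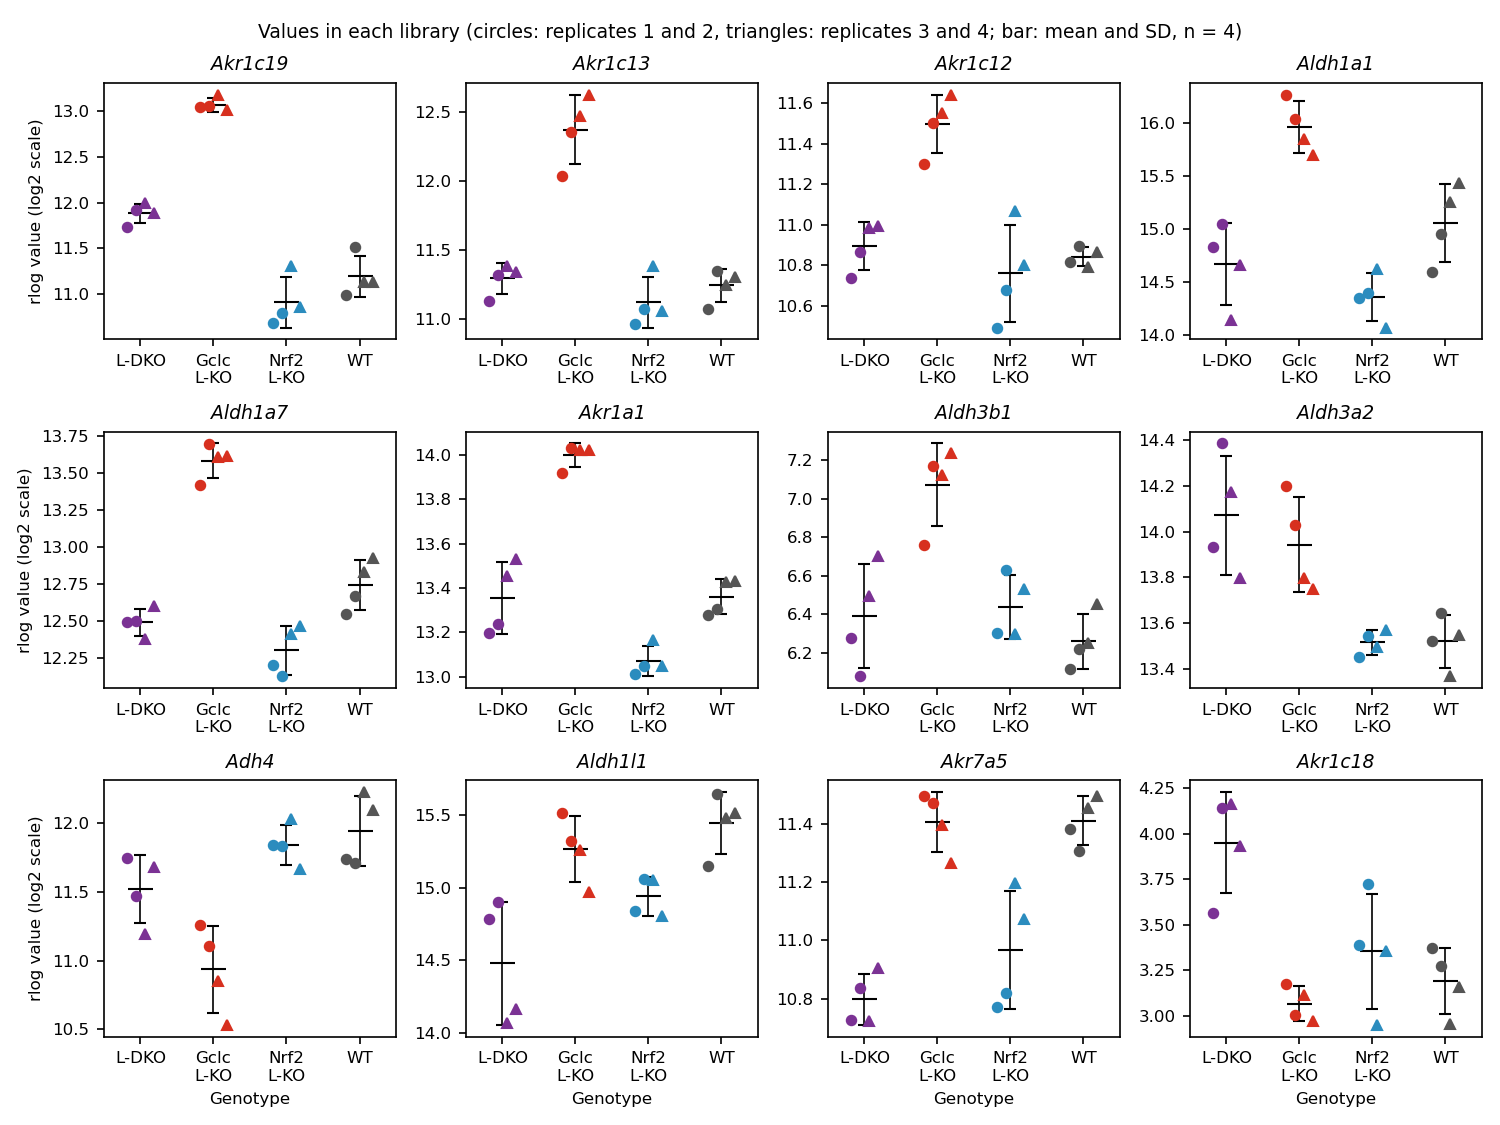
rlog value (log2 scale, vertical axes that do not start at 0) of 12 genes in each of the 16 libraries, by genotype, with the mean and SD of 4 libraries as bars, circles for replicates 1 and 2 and triangles for 3 and 4. In the 7 panels from Akr1c19 to Aldh3b1 the 4 Gclc L-KO libraries lie above all others, and in Aldh1l1, Akr7a5 and Akr1c18 the L-DKO mean is at an extreme.

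Of the 3 fatty aldehyde dehydrogenases, *Aldh3b1* and *Aldh3a2* rose in Gclc L-KO against WT, and they parted in L-DKO. *Aldh3b1*, a membrane-bound enzyme for lipid aldehydes, had 6.28, 6.08, 6.49 and 6.70 in L-DKO livers, 6.76, 7.17, 7.12 and 7.24 in Gclc L-KO livers, 6.30, 6.63, 6.30 and 6.53 in Nrf2 L-KO livers and 6.11, 6.22, 6.25 and 6.46 in WT livers. It rose by 0.81 ± 0.15 in Gclc L-KO (limma adjusted p = 0.00171, 0.80 and 0.83 within the pairs) and differed by -0.69 ± 0.15 between L-DKO livers and Gclc L-KO livers (0.00958). *Aldh3a2*, the fatty aldehyde dehydrogenase of the endoplasmic reticulum, was high in both genotypes that carry Gclc f/f. It had 13.93, 14.38, 14.17 and 13.80 in L-DKO livers, 14.20, 14.03, 13.80 and 13.75 in Gclc L-KO livers, 13.45, 13.55, 13.49 and 13.57 in Nrf2 L-KO livers and 13.52, 13.64, 13.37 and 13.55 in WT livers. L-DKO and Gclc L-KO overlapped with each other, and neither overlapped with Nrf2 L-KO or WT.

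*Aldh3a2* was higher by 0.55 ± 0.12 in L-DKO livers than in WT livers (limma adjusted p = 0.0154, 0.58 and 0.53 within the pairs), by 0.56 in L-DKO livers than in Nrf2 L-KO livers (0.0231) and by 0.42 in Gclc L-KO livers than in WT livers (0.0251, 0.53 and 0.31 within the pairs). These calls depended on single libraries. The adjusted p reached 0.0585 in L-DKO against WT (lost without L-DKO replicate 3 or WT replicate 3), 0.0816 in L-DKO against Nrf2 L-KO (lost without L-DKO replicate 3 or Nrf2 L-KO replicate 1 or 3) and 0.0701 in Gclc L-KO against WT (lost without Gclc L-KO replicate 1 or 2 or WT replicate 1 or 3). Both genes were looked at library by library after their values were seen. *Aldh3b3*, close in sequence to *Aldh3b1*, was called in no comparison and split by replicate number. It had 4.80, 5.74, 3.52 and 3.32 in L-DKO livers, 6.19, 5.80, 3.44 and 3.65 in Gclc L-KO livers, 6.32, 6.07, 3.77 and 3.42 in Nrf2 L-KO livers and 6.68, 6.63, 3.78 and 3.59 in WT livers. Replicates 1 and 2, those with high *Xist*, were above replicates 3 and 4 in every genotype. This split enters the SE of the fit (0.93), so a change of *Aldh3b3* between genotypes could hardly pass. In L-DKO against WT it was -1.38 within replicates 1 and 2 and -0.27 within replicates 3 and 4, where values were near the minimum of 3. The difference between the pairs did not pass (limma adjusted p = 0.117).

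None of the 7 aldehyde dehydrogenases grouped under amino acid, GABA, proline and choline metabolism rose in any comparison. In L-DKO against WT 3 of them fell. *Aldh5a1* (succinic semialdehyde, GABA breakdown) fell by 0.54 (limma adjusted p = 0.0113), *Aldh7a1* (lysine breakdown) by 0.44 (0.0150) and *Aldh16a1* by 0.35 (0.0140). *Aldh5a1* and *Aldh7a1* also fell in L-DKO against Gclc L-KO, by 0.72 (0.00125) and 0.45 (0.0107), with no overlap between the genotypes. The change of *Aldh5a1* in L-DKO against WT was -0.27 within replicates 1 and 2 and -0.81 within replicates 3 and 4, and that of *Aldh7a1* was -0.21 and -0.68. *Aldh16a1* was the one gene of these 7 that fell in Gclc L-KO against WT (by 0.39, 0.00296), with -0.33 and -0.45 within the pairs. It was placed in this group without a known substrate being given for it here. Without L-DKO replicate 3 the adjusted p in L-DKO against WT was 0.0585 for *Aldh7a1* and 0.0557 for *Aldh16a1*. The other 4, *Aldh4a1* (proline), *Aldh6a1* (valine), *Aldh9a1* (carnitine) and *Aldh18a1* (proline synthesis), were called nowhere, although *Aldh6a1* was at 13.07 and 13.003 in replicates 3 and 4 of L-DKO, against 13.91 and 13.89 in WT.

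No alcohol dehydrogenase rose in Gclc L-KO livers against WT. Of 4 tested, *Adh4* and *Adh7* fell, and both were higher in L-DKO livers than in Gclc L-KO livers. *Adh4*, a liver enzyme for ethanol and retinol, had 11.75, 11.47, 11.20 and 11.68 in L-DKO livers, 11.26, 11.11, 10.85 and 10.53 in Gclc L-KO livers, 11.84, 11.84, 12.03 and 11.67 in Nrf2 L-KO livers and 11.74, 11.71, 12.23 and 12.09 in WT livers. Gclc L-KO lay below WT and Nrf2 L-KO without overlap and overlapped with L-DKO. It differed by -1.01 ± 0.16 in Gclc L-KO against WT (limma adjusted p = 9.80e-04, -0.54 and -1.47 within the pairs).

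*Adh7*, a retinol and ethanol dehydrogenase better known from the stomach, differed by -0.58 ± 0.18 in Gclc L-KO against WT (limma adjusted p = 0.0330, -0.49 and -0.68 within the pairs), with values from 4.24 to 4.96 in Gclc L-KO livers and from 5.14 to 5.58 in WT livers. In L-DKO against Gclc L-KO *Adh4* was 0.59 higher (0.0385, 0.43 and 0.75 within the pairs) and *Adh7* 0.65 higher (0.0393, 0.33 and 0.96 within the pairs). Both of these calls were lost with replicate number as a block (adjusted p = 0.0502 for *Adh4* and 0.0577 for *Adh7*) and in 6 of 8 fits with 1 library left out. Those were the fits without L-DKO replicate 1, 2 or 4 or Gclc L-KO replicate 2, 3 or 4 for *Adh4* (adjusted p up to 0.109), and without L-DKO replicate 2, 3 or 4 or Gclc L-KO replicate 2, 3 or 4 for *Adh7* (up to 0.116). The *Adh7* call in Gclc L-KO against WT was lost without Gclc L-KO replicate 2 or 4 or WT replicate 1 or 3 (up to 0.110). *Adh5*, the glutathione-dependent formaldehyde dehydrogenase whose substrate forms from formaldehyde and GSH, fell in L-DKO against WT by 0.33 (0.0427, -0.34 and -0.33 within the pairs), with values of 12.97, 13.05, 12.87 and 13.09 in L-DKO livers against 13.35, 13.35, 13.34 and 13.29 in WT livers. That call was lost in 7 of 8 fits with 1 library left out, all but the one without L-DKO replicate 2 (up to 0.140). *Adh1*, the main ethanol dehydrogenase of mouse liver, was called in no comparison, with 15.54 ± 0.17 in L-DKO, 15.23 ± 0.46 in Gclc L-KO, 15.57 ± 0.16 in Nrf2 L-KO and 15.65 ± 0.21 in WT livers (mean and SD, n = 4 each).

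Whether the change that goes with Gclc f/f differed between mice with and without Nrf2 f/f was tested by the interaction. That is the L-DKO minus Nrf2 L-KO difference less the Gclc L-KO minus WT difference. The interaction passed for 3 of the 38 genes, all with a smaller change in the Nrf2 f/f background (7.89%), beside 0.687% of all genes, 0.225% higher and 0.463% lower. It was -0.95 ± 0.17 for *Akr1c13* (limma adjusted p = 0.0197), -0.91 ± 0.18 for *Akr1c19* (0.0344) and -0.65 ± 0.14 for *Aldh1a7* (0.0468). The side by side changes were 0.17 and 1.13 for *Akr1c13*, 0.97 and 1.88 for *Akr1c19* and 0.19 and 0.84 for *Aldh1a7*, in L-DKO against Nrf2 L-KO and in Gclc L-KO against WT. Of 16 fits with 1 library left out, the call was lost in 1 for *Akr1c13* (without Gclc L-KO replicate 3, 0.0606), in 11 for *Akr1c19* (up to 0.0956) and in 15 for *Aldh1a7* (up to 0.120), where it was kept without Gclc L-KO replicate 1 alone. *Akr1c19* kept its call without L-DKO replicate 2, Gclc L-KO replicate 1, Nrf2 L-KO replicate 1 or 3, or WT replicate 2. For *Aldh1a1* the interaction was -0.59 and did not pass (adjusted p = 0.376).

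Because replicates 1 and 2 differ from 3 and 4 in *Xist* and *Ddx3y*, the change against WT was also set side by side in the 2 pairs. All 43 called changes of the 38 genes, over the 5 pairwise comparisons and the interaction, had the same sign in both pairs. The calls were made on both pairs together, so this agreement is largely set by the choice of genes. It is no check on the pairs. In Gclc L-KO the 8 genes that rose were higher in both pairs, with *Aldh1a1* the most uneven (1.38 and 0.43). Of the 38 genes, 25 had the more negative change in replicates 3 and 4 of Gclc L-KO. The share over all genes is not given, so this count is not a result about these families. The largest splits were those of *Akr1c14* (0.31 and -1.04), *Akr1c20* (-0.32 and -1.56) and *Akr1c6* (-0.34 and -1.54). The difference between pairs was tested after the data were seen. In L-DKO against WT it passed for *Aldh7a1* alone of the 38 genes (-0.47, limma adjusted p = 0.0459, beside 4.34% of all genes), and 13 had an unadjusted p under 0.05, beside 21.9% of all genes. In Gclc L-KO against WT it passed for none (0.899% of all genes), and 9 had an unadjusted p under 0.05, beside 15.3% of all genes. The lowest adjusted p there was 0.0633, for *Akr1c20*.

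**Figure D4:**
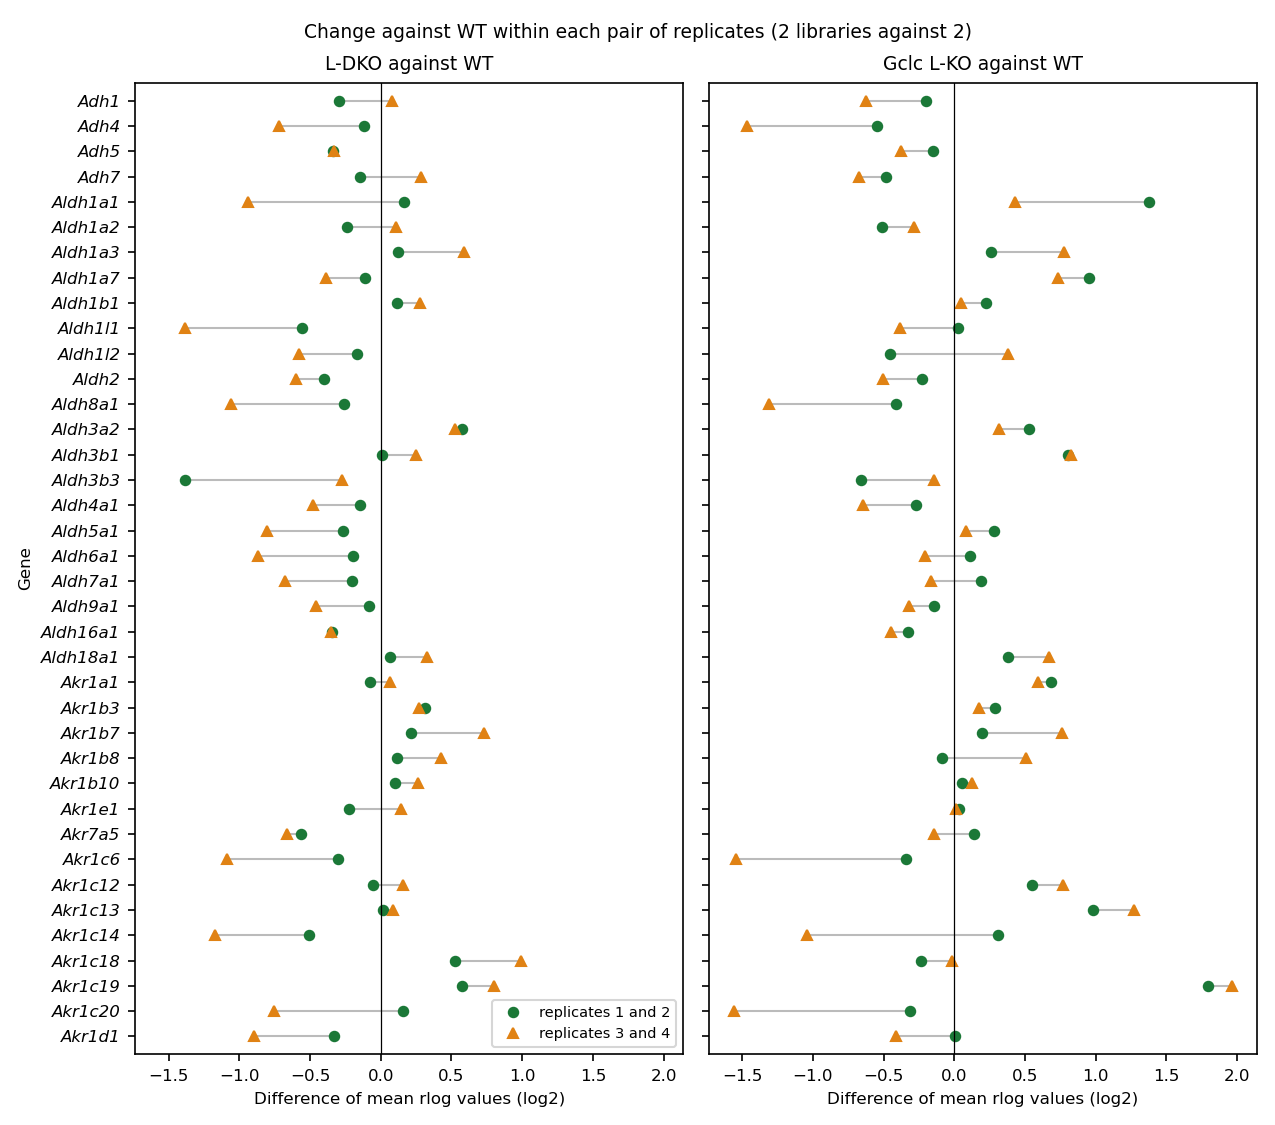
Difference of mean rlog values against WT (horizontal axis, log2) for each of the 38 genes, within replicates 1 and 2 (circles) and within replicates 3 and 4 (triangles), for L-DKO (left) and Gclc L-KO (right), 2 libraries against 2. In Gclc L-KO, Akr1c19 is near 1.80 and 1.96 in the 2 pairs, while Akr1c6 is at -0.34 and -1.54.

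Enzymes of the same pathways outside these families were counted for context. Among all tested genes, 10.6% were called higher and 12.4% lower when Gclc L-KO livers were compared with WT livers. When L-DKO livers were compared with Gclc L-KO livers, the shares were 3.84% higher and 4.8% lower. Whether the counts below depart from these shares was not tested. Of 11 other carbonyl reductases and aldehyde oxidases tested, 4 rose and 2 fell in Gclc L-KO livers against WT, and 6 fell in L-DKO livers against Gclc L-KO livers. *Cbr3* and *Cbr1*, carbonyl reductases, were 5.76 and 2.34 higher in Gclc L-KO livers than in WT livers (limma adjusted p = 1.12e-09 and 8.87e-07) and differed by -5.70 and -2.12 between L-DKO livers and Gclc L-KO livers. *Aox1*, an aldehyde oxidase, rose by 1.81 in Gclc L-KO and fell by 1.10 in Nrf2 L-KO against WT (0.0145), and *Aox3* fell by 1.56 in Gclc L-KO. Of 8 other enzymes of alcohol, acetate and formaldehyde metabolism, 1 was higher and 2 were lower in Gclc L-KO livers than in WT livers. *Esd*, which hydrolyses the S-formylglutathione that ADH5 makes, rose by 1.06 in Gclc L-KO against WT (6.65e-05) and differed by -1.07 between L-DKO livers and Gclc L-KO livers (6.20e-05), while *Adh5* itself was not called in either. *Acss2*, the acetyl-CoA synthetase of the cytosol, fell by 1.16 in Gclc L-KO (0.00215) and by 1.46 in L-DKO (0.00184) against WT, and *Cyp2e1*, the ethanol-oxidising cytochrome, by 1.16 in Gclc L-KO (0.0387). Of 21 other retinoid genes, none rose and 8 fell in Gclc L-KO livers against WT. In L-DKO livers 6 of them rose and none fell against Gclc L-KO livers. *Rdh9*, a retinol dehydrogenase, fell by 1.28 in Gclc L-KO against WT (0.00690) and was 1.45 higher in L-DKO livers than in Gclc L-KO livers (0.00644). Of 14 other steroid enzymes, 1 rose and 5 fell in Gclc L-KO against WT, led by *Hsd3b5*, a hydroxysteroid dehydrogenase, with -4.93 ± 1.10 (0.00663).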

How the data were processed

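Liver mRNA of 16 libraries was measured by poly(A)-selected, strand-specific sequencing. Per the labels and the submitters' processing notes, bcl2fastq 2.20.0, fastp, STAR 2.7.9a, featureCounts of Subread 2.0.1, DESeq2 1.34.0 and the assembly GRCm39 were used. The deposited values are DESeq2 rlog values on the log2 scale, made by the authors over all libraries. Counts and depth are unknown, so no counting error can be given. The labels number the libraries, and p-values measure only the spread between them.

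Genes with a mean of at least 3 over 16 libraries (15128) entered 1 fit with a mean per genotype in limma 3.58.1 (R 4.3.3, eBayes with a mean-variance trend). It gave 5 pairwise comparisons and the interaction. The p-values of each comparison were adjusted over all 15128 genes (Benjamini-Hochberg), tests were two-sided, and 0.05 was the threshold. The fit was tested on simulated data. The 38 genes, their role groups, the marker lists and the lists of other pathway genes were chosen with earlier results of these data known. Values per library were set for the 5 genes called with a log2 fold change of at least 1 in either direction (*Adh4*, *Akr1c13*, *Akr1c19*, *Aldh1a1*, *Aldh1a7*), and those of others were picked after being seen. Of the pathway lists, genes called with such a change were named, at most 4 a list.

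Deviations from the genotype mean of libraries with the same number correlated between -0.07 and 0.55. Every such correlation was above 0.1 in L-DKO against Gclc L-KO (0.21 to 0.38) and in Nrf2 L-KO against WT (0.26 to 0.55). The other number of the same pair (1 with 2, 3 with 4) gave -0.19 to 0.61. Its median was 0.27, beside 0.32 for the same number. A number of the other pair gave -0.55 to 0.15. The labels do not pair the libraries, so the number entered as a block in an alternative fit only. Alternatives were no minimum or a minimum of 6, no trend, robust eBayes, array weights, median centring, quantile normalization, *Xist* as a covariate, the replicate block, each pair of replicates alone, the 2 genotypes compared alone, and each library left out. The test of replicates 3 and 4 against 1 and 2 was added after the data were seen. Coding identity used the longest reading frame of GENCODE M21 transcripts, with no protein table used, and promoters came from RefSeq (Biopython 1.88). Plots were made in Python 3.11.15 with matplotlib 3.10.9.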

Additional observations from a re-analysis of the deposited data

Results flagged for a closer look

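Of 152 groups of 4 libraries, 8 held a library far from the other 3 by Dixon's criterion, and chance gives about 1 in 20. *Adh5* was at 13.29 in WT replicate 4, against 13.34 to 13.35 in the other 3. *Akr1a1* was at 13.92 in Gclc L-KO replicate 1 (others 14.02 to 14.03), and *Aldh1a2* at 4.30 in Nrf2 L-KO replicate 1 (3.66 to 3.73). *Aldh1a3* was at 4.12 in Nrf2 L-KO replicate 2 (4.499 to 4.51), *Aldh1b1* at 11.39 in L-DKO replicate 3 (11.72 to 11.77), and *Aldh1l2* at 4.31 in L-DKO replicate 1 (3.44 to 3.54). *Aldh4a1* was at 13.05 in WT replicate 2 (12.72 to 12.77), and *Aldh9a1* at 12.90 in Nrf2 L-KO replicate 4 (13.15 to 13.18).

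The change of *Aldh7a1* in L-DKO against WT was 0.47 more negative in replicates 3 and 4 than in replicates 1 and 2 (difference -0.47, limma adjusted p = 0.0459). The change that goes with Gclc f/f differed between the backgrounds with and without Nrf2 f/f for *Akr1c13* (interaction -0.95, limma adjusted p = 0.0197), *Akr1c19* (-0.91, 0.0344) and *Aldh1a7* (-0.65, 0.0468). Of 16 fits with 1 library left out, the call was lost in 1 for *Akr1c13*, in 11 for *Akr1c19* and in 15 for *Aldh1a7*.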

How the results depend on the processing

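The 43 log2 fold changes called for these genes were refitted under 876 alternatives in all. Of these, 720 stayed called in the same direction, 156 were no longer called and 0 changed sign, and the cause of a lost call was not tested. In Gclc L-KO against WT 13 genes were called, with array weights 20, in replicates 1 and 2 alone 7, and with 1 library left out 9 to 19. In Nrf2 L-KO against WT 0 were called, with array weights 4, with *Xist* as a covariate 1, and with 1 library left out 0 to 1 (1 without Nrf2 L-KO replicate 3). In L-DKO against WT 10 were called, in replicates 1 and 2 alone 1, in replicates 3 and 4 alone 21, and with 1 library left out 4 to 14 (4 without L-DKO replicate 3). In L-DKO against Gclc L-KO 14 were called, in replicates 1 and 2 alone 7, and with 1 library left out 11 to 14. In L-DKO against Nrf2 L-KO 3 were called. This became 5 with quantile normalization, with the replicate block and with *Xist* as a covariate, 0 in replicates 1 and 2 alone, 13 in replicates 3 and 4 alone, and 1 with the 2 genotypes alone. With 1 library left out it was 1 to 7 (7 with replicate 2 of L-DKO left out, and 1 with L-DKO replicate 3, Nrf2 L-KO replicate 1 or Nrf2 L-KO replicate 3 left out). The interaction passed for 3 genes, with no minimum 1, with *Xist* as a covariate 5, in replicates 1 and 2 alone 0, in replicates 3 and 4 alone 6, and with 1 library left out 0 to 4 (0 without Gclc L-KO replicate 3). Calls that held in every alternative were those of *Akr7a5* in L-DKO against WT, of *Adh4*, *Akr1a1*, *Akr1c12*, *Akr1c13*, *Akr1c19* and *Aldh1a7* in Gclc L-KO against WT, and of *Akr1a1*, *Akr1c12*, *Akr1c13*, *Akr1c19*, *Akr7a5*, *Aldh1a1* and *Aldh1a7* in L-DKO livers against Gclc L-KO livers. The fits within a pair of replicates have 2 libraries a genotype. Counts under the other settings are given without the share over all genes, so their swings are not a result about these families. The replicate block changed no other count by over 1.5 times. Without counts, depth sets a limit that cannot be given.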
